A study of Sus scrofa with 6 samples.

Results

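EWSR1, TAF15 and 5 hnRNP-type genes, HNRNPA1, HNRNPA2B1, HNRNPK, HNRNPU and TARDBP, were followed in porcine 2-cell embryos with and without knockdown of SIN3A. EWSR1 was picked because its transcript was lower in the knockdown, and the others were picked as its relatives by family and not by their values. Of the 7 genes, 6 carry their name in the deposited table, which lists 17678 genes. The row of TARDBP has no name there and was recognised by its Ensembl identifier.

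Porcine oocytes were matured in vitro, injected with siRNA at metaphase II and activated without sperm, so the embryos are parthenogenetic and carry no paternal genome. The control group (NC) received a non-specific siRNA and the knockdown group (KD) received siRNAs to 3 sites of SIN3A, the scaffold of a histone deacetylase corepressor. Embryos of both groups were collected at the 2-cell stage, 32 h after activation, in 3 replicates of 20 pooled embryos per group, and their poly(A) RNA was sequenced. The oocytes came from ovaries of slaughtered crossbred pigs, so a replicate is a pool of embryos and not an animal, and the labels do not say whether replicates came from separate collections.

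EWSR1 and TAF15 belong to the FET family. These nuclear RNA-binding proteins have a low-complexity N-terminal domain, an RNA recognition motif and arginine-glycine-rich stretches, and they link transcription with splicing. The hnRNP proteins coat nascent transcripts and act in splicing, export, stability and translation of mRNA, and TARDBP encodes the related UG-repeat binding protein TDP-43. In cleaving embryos before genome activation, such transcripts are mostly a store laid down in the oocyte.

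The FET proteins are carried into the nucleus by transportin 1, which binds a signal at their C terminus that closes with a proline and a tyrosine. The last 30 bases of the coding sequences of EWSR1 and TAF15 are shown, since both share this ending. No RefSeq coding transcript of HNRNPA1, HNRNPA2B1, HNRNPK or TARDBP closes in this way. Only the ending was compared, so import signals elsewhere in the coding sequences of these genes were not assessed. The bases were read on the coding strand of Sscrofa11.1 from the curated RefSeq mRNA. The proline and tyrosine codons are in capitals, with the stop codon after them.
EWSR1: cgtcaggaacgcagagaccggCCCTATtag
TAF15: agaaatgatcagcgcaaccgaCCATACtga
The EWSR1 stretch lies at chr14:46438957-46438986 on the plus strand and that of TAF15 at chr12:39687171-39687200 on the minus strand. Each lies within a single exon. For EWSR1, 8 of 12 RefSeq coding transcripts end in this way, and the single one of TAF15 does. Among 20619 RefSeq coding genes, 67 (0.325%) have a transcript that ends with these codons.

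EWSR1 (ENSSSCG00000009974) is a plus-strand gene of chromosome 14, from 46408636 to 46439357, and its longest RefSeq mRNA has 2644 bases in 17 exons. TAF15 (ENSSSCG00000017707) is a minus-strand gene of chromosome 12, from 39687171 to 39716761, and its single RefSeq mRNA of 1802 bases holds no untranslated part. These bases are not a whole number of codons, so the model may be incomplete, which was not checked. On the plus strand, HNRNPA1 (ENSSSCG00000000288) lies on chromosome 5 from 19485033 to 19491418, HNRNPA2B1 (ENSSSCG00000036350) on chromosome 18 from 46205164 to 46215861 and TARDBP (ENSSSCG00000023126) on chromosome 6 from 71213584 to 71227707. HNRNPK (ENSSSCG00000022760) and HNRNPU (ENSSSCG00000010877) share chromosome 10, the first from 30975639 to 30987955 on the plus strand and the second from 17475266 to 17497060 on the minus strand. RefSeq lists 1 HNRNPA1-like locus and 1 HNRNPK pseudogene, so reads of these genes may be split with a near copy. It models HNRNPU by non-coding transcripts alone, so no coding length was available for it. The longest transcripts of EWSR1 and TAF15 had a GC content of 53.5% and 53.3%. Those of the 5 hnRNP-type genes lay lower, between 39.4% and 45.7%. The models differ in untranslated sequence, so coding GC content alone was not compared. TAF15 holds none, while TARDBP has a longest coding sequence of 1245 bases against 8151 for its longest transcript.

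The values are normalized abundances, read estimates per gene that the authors scaled between libraries. The spacing of low values gave an estimated depth of 7700000 to 15700000 reads per library. SIN3A itself was at 8.22% of its NC mean in KD embryos, with every KD library below every NC library. Of 12 oocyte and embryo markers, 8 were found, all with a mean of at least 10, and their summed abundance was 35116 to 38667 in NC and 35694 to 41356 in KD libraries. Of 11 cumulus and granulosa cell markers, 9 were found, 2 of them (STAR and INHBA) with a mean of at least 10, and their sum was 38.1 to 42.5 in NC and 32.2 to 70.2 in KD libraries. Their part in the results below was not tested. In pooled embryos, fewer cells with a transcript and less of it per cell cannot be told apart. Over all 11986 genes tested, limma called 19 (0.159%) at an adjusted p below 0.05, and 553 (4.61%) had an unadjusted p below 0.05.

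In control embryos the EWSR1 and TAF15 transcripts were scarcer than those of the hnRNP-type genes. Per kilobase of the longest RefSeq transcript, HNRNPU, which binds nuclear scaffold DNA and RNA, stood highest with an abundance of 2123 ± 125 per kb (SD, n = 3). HNRNPA1, a shuttling splicing repressor, followed with 1905 ± 61.3 per kb, and HNRNPA2B1, its close paralog, with 558 ± 47.6 per kb. HNRNPK, a KH-domain protein that binds C-rich RNA, was at 297 ± 18.3 per kb and TARDBP at 217 ± 18.8 per kb. EWSR1 and TAF15 closed the order, at 98.9 ± 3.86 and 90.9 ± 13.7 per kb (SD, n = 3 each). On this scale the 3 values of each gene from HNRNPU down to EWSR1 did not overlap those of the gene before it, whereas the values of EWSR1 and TAF15 overlapped, so these could not be ordered. The order among the others depended on the length used. Per kilobase of the longest coding sequence, TARDBP stood above HNRNPK, at 1419 against 621 per kb, HNRNPA2B1 was at 2086 and HNRNPA1 at 3398 per kb, and HNRNPU had no value, while EWSR1 and TAF15 remained lowest at 118 and 90.9 per kb. Among 10342 tested genes with a RefSeq length, the median was 59.97 per kb, and EWSR1 stood at the 60.1 percentile against the 98.5 percentile for HNRNPU. The TAF15 model lacks untranslated regions. Its level per kb would be too high if reads of such regions were counted, which was not checked.

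**Figure D1:**
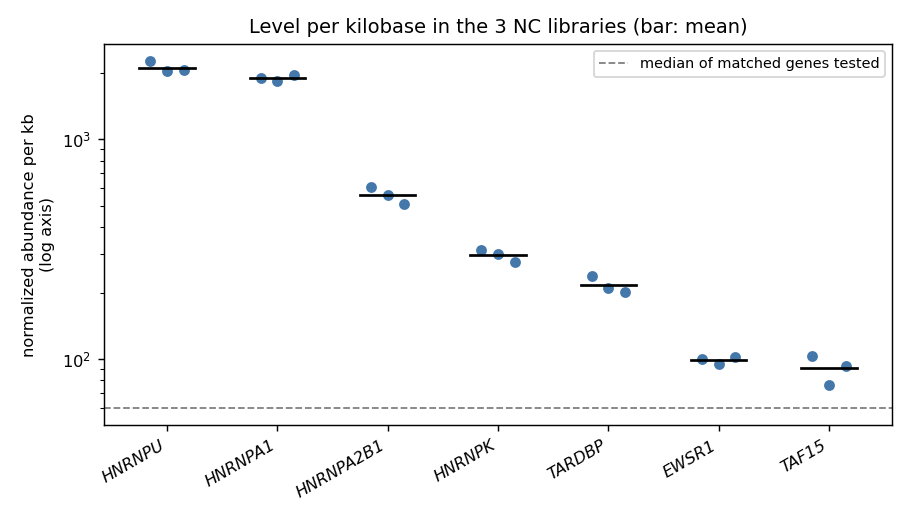
Normalized abundance per kilobase of the longest RefSeq transcript (log axis) in the 3 NC libraries, as points, with the mean as a bar and the median of 10342 matched genes as a dashed line. HNRNPU and HNRNPA1 lie near 2123 and 1905 per kb, while EWSR1 and TAF15 overlap at the lower end.

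EWSR1 was lower in every KD library than in any NC library. In NC replicates 1 to 3 its abundance was 263, 250 and 270, and in the KD replicates, in the same order, 148, 165 and 131. The mean went from 261 ± 10.2 to 148 ± 16.9 (SD, n = 3 each), so that 56.7% of the control level remained, a log2 fold change of -0.82 on the log2(abundance + 1) scale. These values are given as a description, since EWSR1 was picked for them. Of the 11986 genes tested, 125 had a log2 fold change at or below that of EWSR1. Its libraries held an estimated 120 to 318 EWSR1 reads. Counting alone would give an SD of about 17.1 in NC and 11.7 in KD, so the NC replicates lay closer together than counting error and the KD replicates somewhat further apart.

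TAF15, the other FET gene followed here, had overlapping groups. Its abundance was 187, 138 and 167 in NC and 143, 164 and 137 in KD replicates. The KD values fell inside or just below the NC range, and the lowest value of each group was nearly the same. By limma its log2 fold change was -0.14, with a standard error of 0.17, a 95% confidence interval of -0.51 to 0.23 and an adjusted p of 0.997. With 1 library left out, the log2 fold change of TAF15 ranged from -0.26 to -0.04. TAF15 had an estimated 93 to 228 reads per library, the fewest of the 7 genes, and the widest interval of the 6 relatives.

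**Figure D2:**
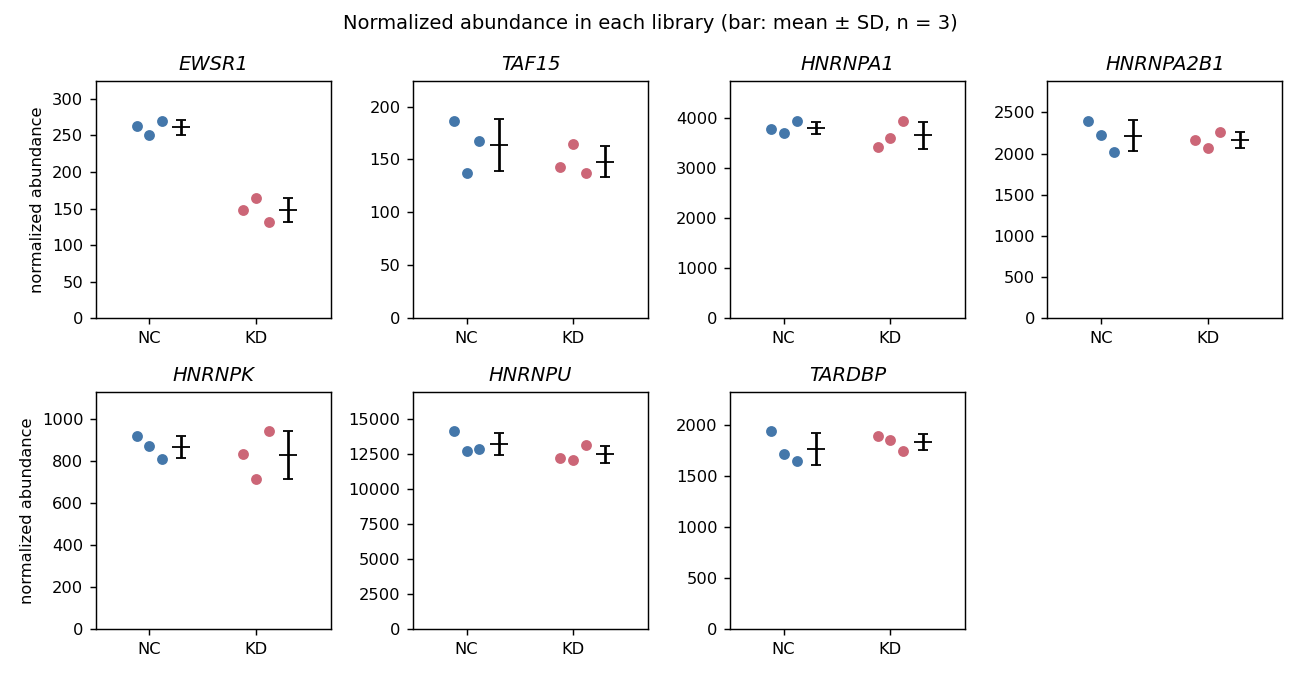
Normalized abundance of EWSR1, TAF15, HNRNPA1, HNRNPA2B1, HNRNPK, HNRNPU and TARDBP (vertical axes from 0), with 1 point per NC (blue) or KD (red) library and the mean ± SD (n = 3) beside the points. For EWSR1 the KD points, 131 to 165, lie below the NC points, 250 to 270, and the points of the other genes overlap.

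HNRNPA1, HNRNPA2B1, HNRNPK, HNRNPU and TARDBP were more abundant than TAF15 and had narrower intervals. HNRNPA1 was at 3789, 3703 and 3945 in NC and at 3431, 3601 and 3956 in KD replicates, so that the highest and the lowest value were both in KD embryos. Its log2 fold change was -0.06 (95% confidence interval -0.24 to 0.12). HNRNPA2B1 was at 2401, 2221 and 2023 in NC and at 2166, 2066 and 2260 in KD replicates, all KD values lying within the NC range. Its log2 fold change was -0.03 (95% confidence interval -0.23 to 0.17).

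HNRNPK was at 916, 872 and 810 in NC and at 833, 712 and 941 in KD replicates. The KD values lay on both sides of the NC range, and the log2 fold change was -0.07 (95% confidence interval -0.32 to 0.17). HNRNPU was at 14112, 12693 and 12846 in NC and at 12171, 12038 and 13149 in KD replicates. A pair of its KD values lay under the NC range and the third within it, with a log2 fold change of -0.09 (95% confidence interval -0.26 to 0.09).

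TARDBP had a higher mean in KD, unlike the other 6 genes, although HNRNPA2B1 and HNRNPK changed sign with a library left out. It was at 1940, 1713 and 1648 in NC and at 1895, 1858 and 1747 in KD replicates, and each KD value lay within the NC range. Its log2 fold change was 0.06 (95% confidence interval -0.15 to 0.26). For HNRNPA1, HNRNPA2B1, HNRNPK, HNRNPU and TARDBP limma gave an adjusted p of 0.997.

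None of the 6 relatives of EWSR1 was called by limma, against 0.159% of all genes tested. None had an unadjusted p below 0.05 from limma, against 4.61%. None had groups that did not overlap, against 9.79% of all genes tested with groups apart in either direction. Their median log2 fold change was -0.07, where the median over all genes tested was 0.0026, and 5 of 6 were below 0, against 49.4% of all genes tested. Of these 5, HNRNPA2B1 and HNRNPK moved above 0 when single libraries were left out. The exact two-sided permutation test gave p = 0.3 to 0.8 for the 6 genes, and its smallest possible p with 3 replicates against 3 is 0.1. The confidence intervals of all 6 ended above -0.82, the log2 fold change of EWSR1. That of TAF15 reached -0.51, and those of the hnRNP genes and TARDBP reached no lower than -0.32. EWSR1 itself was selected for its fall, so its distance from the relatives is a description and was not tested.

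**Figure D3:**
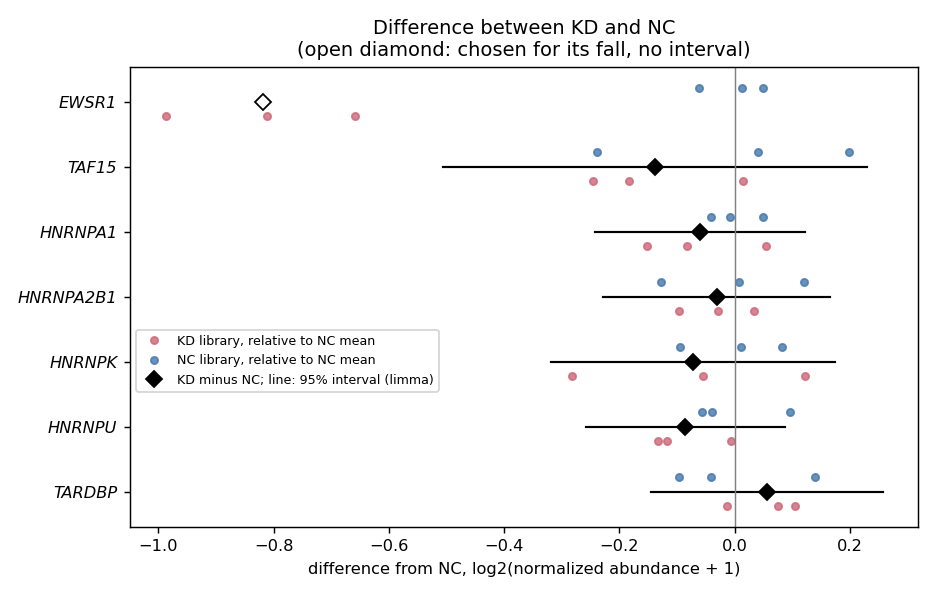
Difference from NC on the log2(abundance + 1) scale. Red and blue points are KD and NC libraries relative to the NC mean, and diamonds are KD minus NC with the 95% confidence interval of limma. All intervals of the relatives cross 0, and the open diamond of EWSR1, drawn without an interval, lies at -0.82.

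EWSR1 was also set against each relative within a library, a ratio that does not depend on the scaling between libraries. The ratio of EWSR1 to TAF15 was 1.41, 1.82 and 1.62 in the NC libraries and 1.04, 1.01 and 0.96 in the KD libraries. The NC libraries thus held more EWSR1 than TAF15 in this unit, and the KD libraries about as much of one as of the other. The ratio to HNRNPA1, a far more abundant transcript, was 0.0686 ± 0.0010 in NC and 0.0408 ± 0.0067 in KD libraries (SD, n = 3 each). For each of the 6 relatives the ratio was lower in every KD library than in any NC library. The ratios contain the EWSR1 values that led to its choice, so a lower ratio in KD follows from that choice where the relative moved little, and they are a description with no test.

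**Figure D4:**
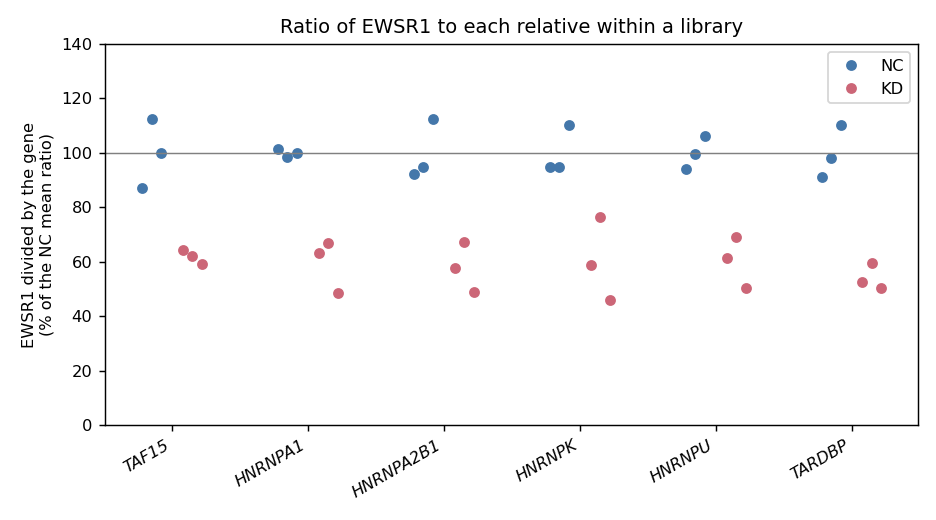
EWSR1 abundance divided by that of each relative in the same library, as a percentage of the mean NC ratio, with NC libraries in blue and KD libraries in red. The red points lie below the blue ones for each of the 6 relatives.

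A wider list of 26 hnRNP family genes was then examined, of which 22 were found and tested. None of the 22 was called by limma, against 0.159% of all genes tested. None had an unadjusted p below 0.05 from limma, against 4.61%. The groups overlapped in all of them, where 9.79% of all genes tested had groups apart. The median log2 fold change was -0.0020, with 11 genes below 0 and 11 above. The lowest log2 fold changes were those of PCBP3 (-0.56), HNRNPLL (-0.39) and HNRNPC (-0.08), the last of which turned sign without NC replicate 1, and the highest those of PCBP4 (0.12), PTBP3 (0.12) and HNRNPM (0.09). PCBP3 and PCBP4 belong to the poly(C)-binding proteins, the family of HNRNPK, and HNRNPLL is a splicing regulator. PCBP3 and HNRNPLL were scarce, with abundances of 14.2, 37.7 and 31.8 and of 78.3, 104 and 54.9 in NC replicates. In KD replicates they were at 11.9, 24.2 and 17.5 and at 44.0, 72.5 and 61.6, so the groups of both genes overlapped. Without NC replicate 1 or 2 the log2 fold change of PCBP3 was -0.97 or -0.30, and without NC replicate 3 or 2 that of HNRNPLL was -0.63 or -0.17. Most abundant per kb were PCBP1, HNRNPD and PCBP2, whose log2 fold changes were 0.0016, 0.07 and 0.08. The lowest adjusted p of the 22 genes was 0.997 from limma.

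Of 29 RNA-binding partners with paraspeckle, granule or prion-like roles, 28 were found and 27 tested, TIA1 being too scarce. None was called by limma, against 0.159% of all genes tested, while 5 of 27 had an unadjusted p below 0.05, against 4.61%. The median log2 fold change was -0.05, with 20 of 27 genes below 0, against 49.4% of all genes tested. In 4 of 27 genes the groups did not overlap. Of these, 3 were lower and 1 higher in KD, where 4.94% and 4.85% of all genes tested were apart in these directions.

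MATR3, a nuclear matrix protein with RNA recognition motifs, was at 1502, 1221 and 1293 in NC and at 1005, 842 and 1179 in KD replicates. All KD values were below all NC values, and limma gave -0.42 with a standard error of 0.12 and an adjusted p of 0.580. RBM45, an RNA-binding protein found in inclusions with TDP-43, had the lowest log2 fold change of the list, -1.24, with a standard error of 0.43 and an adjusted p of 0.852 by limma. Its abundance was 42.0, 60.2 and 65.3 in NC and 26.0, 9.44 and 45.8 in KD replicates, so the groups overlapped. The log2 fold change of RBM45 was -0.65 without KD replicate 2, its lowest library, and -1.74 without KD replicate 3. G3BP1, a core protein of stress granules, was at -0.49, with a standard error of 0.34, an adjusted p of 0.997 by limma and overlapping groups, and it moved to -0.92 without NC replicate 3 and to -0.22 without NC replicate 1.

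At the other end were FUBP3 (0.42), DDX3X (0.28) and ELAVL1 (0.12). DDX3X, a DEAD-box RNA helicase, was at 6721, 5260 and 5180 in NC and at 6921, 6882 and 6884 in KD replicates. The KD replicates lay close together and above all NC replicates, yet the adjusted p was 0.852 from limma. FXR1, a relative of the fragile X protein, was one of the most abundant genes of this list per kb. Its log2 fold change was -0.23, with a standard error of 0.08 and an adjusted p of 0.904 by limma. The abundance of FXR1 fell in every KD library. It went from 4370, 4412 and 4552 in NC to 3652, 3602 and 4093 in KD replicates without overlap. FUBP1, also without overlap and named here after its values were seen, was at -0.26 with an adjusted p of 0.997 by limma. KHSRP and ATXN2L, the most abundant per kb beside FXR1 among those with a RefSeq length, had log2 fold changes of -0.01 and 0.08.

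A list of nuclear import receptor and arginine methyltransferase genes showed no call either, against 0.159% of all genes tested. Of 7 listed, 6 were tested and PRMT8 was too scarce. None of the 6 had an unadjusted p below 0.05 in limma, against 4.61% of all genes tested. The median log2 fold change of the 6 was 0.06. TNPO1, the transportin that reads the C-terminal signal shown above, was at 6905, 5847 and 5629 in NC and at 6064, 5818 and 5703 in KD replicates. Its values overlapped, with a log2 fold change of -0.06 (95% confidence interval -0.25 to 0.13). PRMT1, which methylates arginines of FET proteins, had a log2 fold change of 0.08 (95% confidence interval -0.14 to 0.31). TNPO2 had the highest, 0.14, by limma with an adjusted p of 0.997. Its KD values of 840, 902 and 844 lay above its NC values of 769, 805 and 777. It was the 1 gene of the 6 with groups apart, against 9.79% of all genes tested. The other genes, TNPO3, KPNB1 and PRMT5, were at -0.09, 0.03 and 0.13, with overlapping groups.

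**Figure D5:**
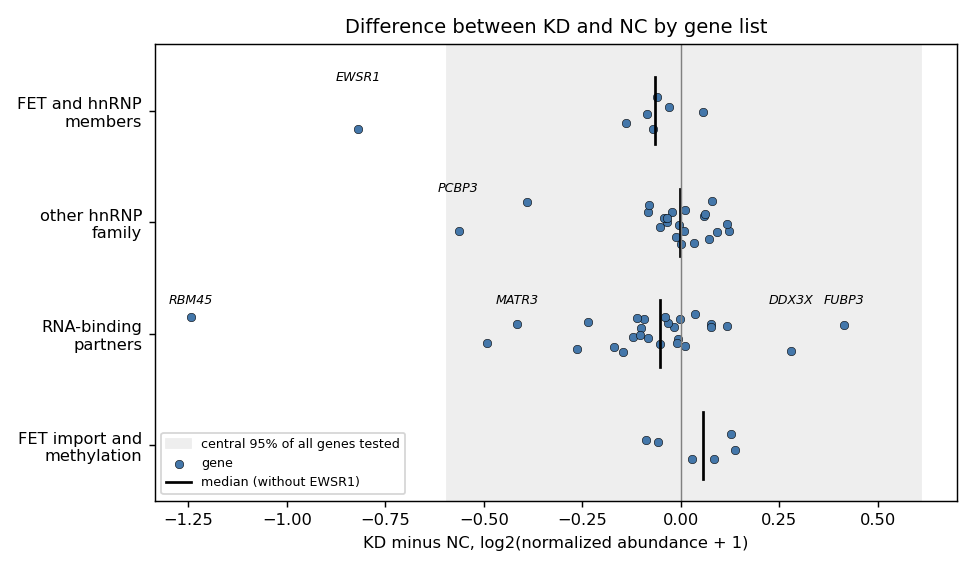
KD minus NC on the log2(abundance + 1) scale for each tested gene of the 4 lists (points), with the median without EWSR1 as a bar and the central 95% of all genes tested, -0.59 to 0.61, in grey. EWSR1 at -0.82 and RBM45 at -1.24 lie outside the grey band, and all other genes of the lists lie inside it.

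Genes were also ranked by how closely their pattern over the 6 libraries followed that of EWSR1. Among 6800 named genes with a mean of at least 100, the highest Pearson correlations of log2(abundance + 1) with EWSR1 were those of APEX1 (0.9997), ABHD12B (0.99), PKM (0.98), RSRC2 (0.98) and TBC1D30 (0.98). APEX1 encodes the abasic-site endonuclease of base excision repair and PKM a pyruvate kinase. APEX1 was at 130, 127 and 134 in NC and at 91.5, 97.0 and 83.4 in KD replicates, in the same order of libraries as EWSR1. The log2 fold changes of the 5 genes were -0.65 to -0.19. The 6 points fall into the NC and the KD group and share their libraries, so the difference between the groups enters every one of these correlations. The ranking used the EWSR1 values that led to its choice. It took the highest of 6800 genes over 6 points, and only 6 of these genes were the relatives followed here. It is therefore a description with no test. TAF15 had a correlation with EWSR1 of 0.55, HNRNPU of 0.45, HNRNPA1 of 0.30, HNRNPA2B1 of 0.06, HNRNPK of 0.05 and TARDBP of -0.25.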

How the data were processed

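Poly(A) RNA of 3 NC and 3 KD pools of 20 embryos was sequenced. The length of poly(A) tails was not measured, so its part in the levels and differences was not tested. Per the labels and the study's methods, the authors quantified reads with Salmon 0.14.1 against the Sscrofa11.1 transcripts and then used DESeq2. The deposited table holds 1 normalized signal value per gene and library. The median ratio to the geometric mean was 1.01 in every library. Of the low values, 61.1% to 73.1% lay within 0.05 steps of a common spacing, so the read estimates and counting errors are approximate. The plan kept the limma fit whether or not the values were counts, as earlier work on these data had found normalized values. Count models were not used. Genes with a mean of at least 10 entered a limma fit (version 3.58.1, R 4.3.3) of log2(value + 1), with a variance trend, all 6 libraries and Benjamini-Hochberg adjustment over 11986 genes. Exact permutation tests used scipy 1.17.1. The fit was tested on simulated data. p-values measure the spread between these pools. Intervals and read estimates of a single gene become less precise as its level falls. Spike-in mRNAs were not used here, so total mRNA per embryo was not assessed.

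Members and lists were chosen with earlier results of these data known. Some genes of the lists are not reported here and were left out of the lists' counts. Besides the members and SIN3A, the text names from each list the 3 highest and 3 lowest log2 fold changes, the 3 highest levels per kb and any called gene, and the 5 genes most correlated with EWSR1. Of the lists, HNRNPDL, HNRNPL, HNRNPUL1, HNRNPUL2, SYNCRIP, MATR3, TIAL1 and FUBP1 were recognised by identifier. Levels per kb used the longest RefSeq transcript, matched by symbol for 10342 genes (86.3%).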

Additional observations from a re-analysis of the deposited data

How the results depend on the processing

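With 3 pools per group and few reads for the FET genes, small changes of these transcripts were not detectable. The log2 fold change of EWSR1 ranged from -0.90 to -0.74 with 1 library left out and stayed within that range in the other alternatives, namely quantile normalization, TMM-like rescaling, a pseudocount of 0.1 or 10, a minimum mean of 100 or none, robust eBayes, no variance trend and the replicate block. The 6 relatives and the 3 wider lists had 0 called genes in each of these settings. Over all genes, 19 were called by limma, 11 to 19 with 1 library left out (12 without NC replicate 2 or 3, 11 without KD replicate 1 or 2), and 0 without the variance trend, with 622 at an unadjusted p below 0.05; the cause was not tested. SIN3A lost its call without the variance trend (adjusted p = 0.423 from limma) and with robust eBayes (0.469). The replicate block gave 26 genes over all. Deviations from the group means of same-numbered libraries correlated at 0.11, 0.11 and 0.087. Those of differently numbered libraries correlated at -0.083 to -0.021, so each library correlated best with its own number. The plan had no block, and the main fit therefore did not take the numbers as pairs. Whether same-numbered libraries belong together is not given by the labels and was not tested.

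Left-out libraries turned the sign of small differences. HNRNPA2B1 ranged from -0.095 to 0.029, HNRNPK from -0.17 to 0.033, HNRNPC from -0.14 to 0.030, PCBP1 from -0.049 to 0.035, KHSRP from -0.14 to 0.073, TNPO1 from -0.12 to 0.030, KPNB1 from -0.048 to 0.097 and PRMT1 from -0.0012 to 0.20. PCBP1 was at -0.033 with quantile normalization. The level of EWSR1 was 111 per kb with the median transcript length and 118 per kb with the longest coding sequence, a length that moved HNRNPK from 297 to 621, HNRNPA2B1 from 558 to 2086 and TARDBP from 217 to 1419 per kb and placed TARDBP above HNRNPK.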
